A study of Mus musculus with 56 samples.

Results

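Malat1, Neat1, Meg3, Miat, Rian, Mirg and Snhg11 are 7 mouse genes whose transcripts are known as nuclear long noncoding RNAs, which a capture of translating ribosomes would be thought to leave out. They were chosen by name from the 43629 gene rows of the count tables, and all 7 passed the filter on low counts that 18838 genes passed. The libraries came from translating ribosome affinity purification of motor neurons (MN-TRAP), in which a ribosomal protein tagged with EGFP (EGFP-L10a) is made in cells that express Chat and the tagged ribosomes are pulled down with antibodies to EGFP. Each MN-TRAP library was compared with spinal cord libraries made from lysate set aside before the pulldown. There were 25 MN-TRAP and 31 spinal cord libraries, from female mice of 9 or 14 weeks and of 3 genotypes, in 12 groups of 3 to 6.

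Every mouse, the controls included, carried the Chat bacTRAP transgene (line DW167), and all lines were on the C57BL/6J background. The hTDP-43A315T mice also carried a mutant human TDP-43 transgene (line 95Balo), and the hTDP-43WT mice carried the unmutated human sequence (line 3cPtrc), both driven by the prion promoter and thus not limited to motor neurons. The Chat bacTRAP mice had neither human transgene. At 14 weeks there were 4 spinal cord and 4 MN-TRAP libraries of hTDP-43A315T mice, 5 and 5 of hTDP-43WT mice and 5 and 4 of Chat bacTRAP mice. At 9 weeks there were 5 and 5, 6 and 3, and 6 and 4. The labels give cervical spinal cord as the tissue, and RNA was selected by its poly(A) tail.

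Malat1 is a part of nuclear speckles, the bodies where splicing factors gather, and Neat1 is the scaffold on which paraspeckles are built. Meg3, Rian and Mirg lie in order in the imprinted Dlk1-Dio3 domain, are expressed from the maternal allele, and Rian hosts small nucleolar RNAs and Mirg miRNAs. Miat (also called Gomafu) is a nuclear RNA of neurons, and Snhg11 is a host gene of small nucleolar RNAs. TDP-43 is a nuclear protein that binds UG-rich RNA, and Neat1 and Malat1 are among the RNAs it is known to bind. Both fractions were drawn from homogenate that had been spun to remove cellular debris, and how much nuclear RNA stayed in it was not measured. No nuclear fraction was analysed here.

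In the GENCODE M21 annotation of GRCm38, Malat1 (ENSMUSG00000092341) lies at chr19:5795690-5802672 on the minus strand as a single exon, and Neat1 (ENSMUSG00000092274) at chr19:5824708-5845478 on the same strand, 22036 bases away. Meg3 (ENSMUSG00000021268) lies at chr12:109541001-109571726, Rian (ENSMUSG00000097451) at chr12:109603940-109661716 and Mirg (ENSMUSG00000097391) at chr12:109729764-109749460, all on the plus strand, with gaps of 32214 and 68048 bases between them. The spans of Meg3, Rian and Mirg hold 1, 3 and 14 annotated miRNA hairpins. Miat (ENSMUSG00000097767) lies at chr5:112213228-112229395 on the minus strand and Snhg11 (ENSMUSG00000044349) at chr2:158375638-158386145 on the plus strand. The annotation gives Snhg11 the type protein_coding and no other member of the 7, so its place among noncoding RNAs rests on its name. For Miat, 32.1% of the exon bases overlap other counted genes, and 24.3% overlap the antisense gene Gm26953, which was listed at 0 counts in all 56 libraries. For the other 6 the overlap was 1.56% to 8.29%. The counting was not stated to use strand, and how reads in the shared bases were assigned or left out was not checked.

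The 3 members with the densest TG repeats each hold an unbroken run of alternating T and G, the letters of the sequence that TDP-43 favours, and these runs are shown in capitals with 12 bases on either side, 5′ to 3′ on the transcribed strand. With these flanking bases, the Neat1 sequence shown lies at chr19:5826015-5826062, the Meg3 sequence at chr12:109565113-109565164 and the Miat sequence at chr5:112213712-112213759 (GRCm38).
Neat1: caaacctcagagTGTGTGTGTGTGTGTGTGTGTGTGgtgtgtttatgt
Meg3: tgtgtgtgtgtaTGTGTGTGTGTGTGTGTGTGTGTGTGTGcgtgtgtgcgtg
Miat: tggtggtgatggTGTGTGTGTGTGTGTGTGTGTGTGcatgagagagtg

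The runs were 24 bases in Neat1, 28 in Meg3 and 24 in Miat, and the longest in the other 4 members was 6. A run of at least 24 bases was found in the longest annotated transcript of 781 of the 18701 tested genes with one (4.18%) and of 341 of the 3603 with a transcript of at least 5 kb (9.46%). Matches to TGTGTG on the transcribed strand, overlapping ones counted, numbered 53 in Meg3 (3.64 per kb), 31 in Miat (3.38 per kb) and 48 in Neat1 (2.31 per kb), against a median of 0.515 per kb over those genes. Mirg had 1.31 per kb, Snhg11 0.682, Malat1 0.430 and Rian 0.247. These matches describe letters and are not sites of binding.

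Malat1 and the long form of Neat1 end without a poly(A) tail, at an A-rich stretch encoded in the genome, which bears on libraries selected by poly(A). The Malat1 stretch lies at chr19:5795980-5796039, with its longest run of A, which ends 298 bases before the annotated end, in capitals, and the Neat1 stretch at chr19:5824708-5824767 is the annotated end, with the last bases in capitals (GRCm38, transcribed strand).
Malat1: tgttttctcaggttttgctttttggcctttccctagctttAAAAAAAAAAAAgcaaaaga
Neat1: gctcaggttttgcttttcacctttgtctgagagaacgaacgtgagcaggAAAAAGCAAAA

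Library totals ran from 0.472 M to 255.8 M counts (M for 1000000) in MN-TRAP and from 17.5 M to 86.7 M in spinal cord. The mean over 8 motor neuron markers was 7.29 to 8.35 log2 CPM (counts scaled to 1000000 per library) in MN-TRAP and 5.05 to 5.55 in spinal cord, and that over 36 glial and endothelial markers was 3.94 to 6.69 and 6.77 to 7.52. In 4 MN-TRAP libraries, replicate 2 of hTDP-43WT at each age, Chat bacTRAP replicate 1 at 14 weeks and replicate 2 at 9 weeks, that glial mean was 5.79 to 6.69, nearest to spinal cord, and none of these 4 was of hTDP-43A315T mice. Reads of the pseudogene Lamr1-ps1 stood at 0.480 to 2.93 CPM in the 18 hTDP-43A315T libraries, at no more than 0.0398 in 35 control libraries, and at 1.11 to 1.69 in 3 control MN-TRAP libraries: hTDP-43WT replicate 5 at 14 weeks, hTDP-43WT replicate 3 at 9 weeks and Chat bacTRAP replicate 4 at 9 weeks. Thus 3 libraries labelled as controls went against their labels on that measure. For 2 of them the counts were close to those of 1 hTDP-43A315T library each, at a chi-square per gene of 1.31 and 1.90. The next closest of 1326 pairs had 8.95, and counting error alone gives about 1. The first was hTDP-43WT replicate 5 at 14 weeks, close to hTDP-43A315T MN-TRAP replicate 3 of that age. The second was Chat bacTRAP replicate 4 at 9 weeks, close to hTDP-43A315T MN-TRAP replicate 5 of that age. At 255.8 M and 192.7 M counts they were the 2 deepest libraries. The main fit kept both as controls by label, so its genotype tests, called or not, count them as independent. Whether each pair shares an RNA source was not tested. Chat bacTRAP MN-TRAP replicate 4 at 14 weeks, in a study of female mice, had 51.0 CPM of the Y-linked gene Ddx3y, against at most 0.828 in the other 55 libraries. Tests between fractions or genotypes that rest on this library, on the glia-rich or Lamr1-ps1 libraries, or on 4 MN-TRAP libraries under 5 M counts, are given with and without them.

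The 7 RNAs together took 0.117% to 0.378% of the counts of a spinal cord library (median 0.227%) and 0.0196% to 0.178% of those of an MN-TRAP library (median 0.0313%). Per kb of exon, Meg3 was the most abundant in spinal cord at a median of 47.4 CPM per kb, which ranked 1018 of 18708 genes. Snhg11 followed at 35.8, Malat1 at 22.2, Rian at 16.9, Neat1 at 15.1 and Miat at 10.4, and Mirg was lowest at 0.878. In MN-TRAP the order was another one, with Snhg11 at 8.73 and Rian at 8.02 CPM per kb above Meg3 at 3.61, Malat1 at 2.33, Neat1 at 1.67, Miat at 0.969 and Mirg at 0.288. Rank 7670 of 18708 for Meg3 in MN-TRAP stood against rank 5218 for Rian, the neighbour gene that was less abundant than Meg3 in spinal cord.

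**Figure D1:**
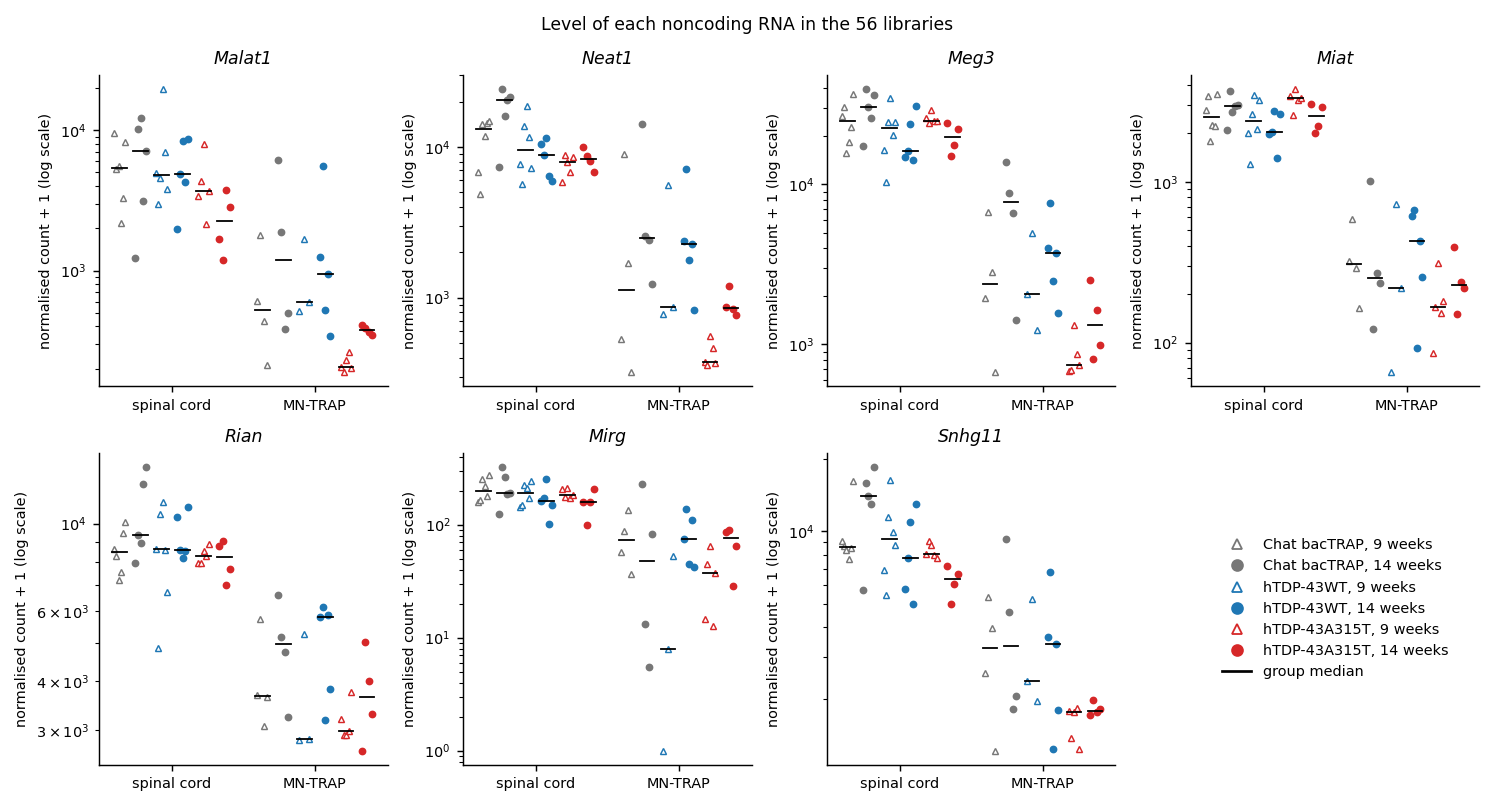
Normalised count plus 1 (log scale) of each of the 7 RNAs in every library of the 12 groups, with open triangles for 9 weeks, filled circles for 14 weeks and a black bar at the group median. Miat was lower in all 25 MN-TRAP libraries than in any spinal cord library, and the highest MN-TRAP values of Malat1 and Neat1 (6117 and 14230) lay within the spinal cord range.

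The first comparison asked which of these RNAs were lower in MN-TRAP than in spinal cord. All 7 were lower in MN-TRAP than in spinal cord over all groups (edgeR quasi-likelihood test, adjusted p under 0.05 and at least 2-fold), by 8.36-fold for Meg3 to 2.04-fold for Rian, where 26.1% of all 18838 genes were called lower and the median change of all genes was -0.17 on the log2 scale. Fewer cells of a type and less RNA per cell cannot be told apart in such bulk libraries. MN-TRAP and spinal cord differ in cell types as well as in ribosome capture, and the comparison cannot tell these apart. Depletion here means a lower level in MN-TRAP than in spinal cord, whatever its cause.

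Of the speckle and paraspeckle RNAs, Malat1 had 1188 to 19763 normalised counts in the 31 spinal cord libraries (median 4344) and 187 to 6117 in the 25 MN-TRAP libraries (median 433). Neat1 had 4846 to 24321 in spinal cord (median 8844) and 319 to 14230 in MN-TRAP (median 866). Most MN-TRAP libraries lay below every spinal cord library, 19 of 25 for Malat1 and 21 of 25 for Neat1, and a few lay well inside the spinal cord range. The log2 changes were -2.55 ± 0.31 (SE) for Malat1 (edgeR adjusted p = 7.07e-10) and -2.35 ± 0.27 for Neat1 (adjusted p = 2.16e-10).

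The imprinted cluster was not depleted evenly. Meg3 fell from 10407 to 39713 normalised counts in spinal cord (median 24200) to 666 to 13832 in MN-TRAP (median 1956), with 24 of 25 MN-TRAP libraries below every spinal cord library. Rian, from the same strand 32214 bases downstream, had 4837 to 13904 in spinal cord (median 8594) and 2667 to 6584 in MN-TRAP (median 3695). The 2 genes were thus at opposite ends of the 7, with Meg3 -3.06 ± 0.21 (edgeR adjusted p = 2.67e-18) and Rian -1.03 ± 0.09 (adjusted p = 1.82e-15). Mirg, the least abundant member, had 98.5 to 323 in spinal cord (median 177) and 0 to 226 in MN-TRAP (median 51.6), a change of -1.60 ± 0.22 (adjusted p = 8.06e-09). Its value of 0 was in the shallowest library, replicate 1 of hTDP-43WT at 9 weeks, where 0 of 472447 counts allow a share of up to 0.000635% (counting error only). Without the 4 libraries under 5 M counts Rian was -0.94 and no longer reached 2-fold.

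Miat had 1297 to 3784 normalised counts in spinal cord (median 2719) and 64.5 to 1005 in MN-TRAP (median 236), and it was the member with no overlap between the fractions in either normalised counts or CPM, where 1.49% of all genes were lower without overlap in CPM. Its change was -2.91 ± 0.19 (edgeR adjusted p = 2.38e-19). Snhg11 had 4972 to 18575 in spinal cord (median 8506) and 1218 to 9270 in MN-TRAP (median 1966), a change of -1.61 ± 0.16 (adjusted p = 1.49e-12). By size of change the members ranked 702 (Meg3), 822 (Miat), 1167 (Malat1), 1448 (Neat1), 3136 (Snhg11), 3160 (Mirg) and 4873 (Rian) from the lowest of 18838 genes. Without the 4 glia-rich libraries every member was lower still, at -3.52 for Meg3, -3.38 for Miat, -3.30 for Neat1, -3.29 for Malat1, -1.98 for Snhg11, -1.85 for Mirg and -1.19 for Rian. Without the 3 Lamr1-ps1 libraries Meg3 was at -2.92 and Rian at -1.0.

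**Figure D2:**
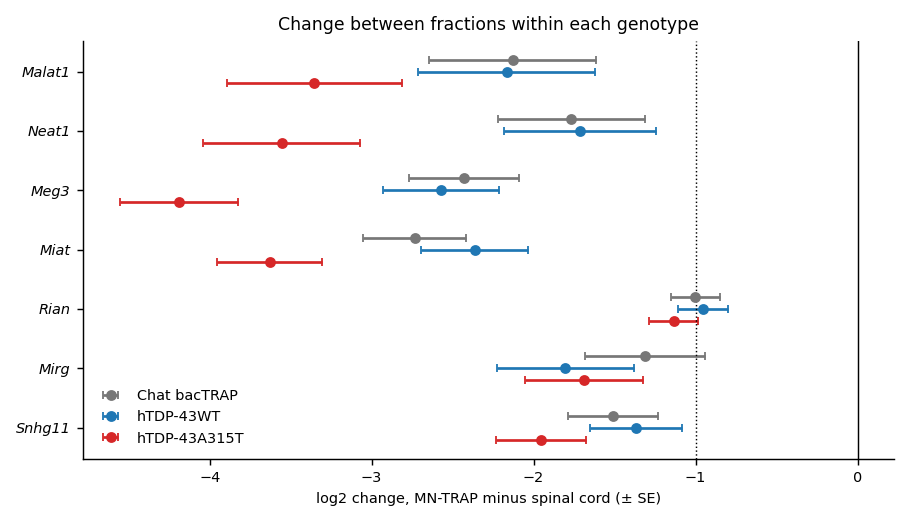
Log2 change from spinal cord to MN-TRAP of each RNA within each genotype, as the fitted estimate ± SE, with a dotted line at -1 (2-fold lower). Meg3 was -4.19 in hTDP-43A315T against -2.57 in hTDP-43WT and -2.43 in Chat bacTRAP, and Rian lay close to the line in all 3.

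Within hTDP-43A315T mice all 7 RNAs were lower in MN-TRAP (24.1% of all genes), and none of their 9 MN-TRAP libraries overlapped the 9 spinal cord libraries in CPM for any member (19.6% of all genes were lower without overlap). Meg3 had 675 to 2522 normalised counts in MN-TRAP (median 869) and 15143 to 29312 in spinal cord (median 24200), 18.2-fold lower (log2 -4.19 ± 0.36). Miat was -3.63 ± 0.32, Neat1 -3.56 ± 0.49, Malat1 -3.35 ± 0.54, Snhg11 -1.95 ± 0.28, Mirg -1.69 ± 0.36 and Rian -1.13 ± 0.15. The depletion of Meg3 and Miat left every MN-TRAP library far below the lowest spinal cord library.

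In hTDP-43WT mice 6 of the 7 were lower (19.8% of all genes), with Meg3 at -2.57, Miat at -2.36, Malat1 at -2.17, Mirg at -1.80, Neat1 at -1.71 and Snhg11 at -1.37, and Rian at 1.94-fold did not reach the 2-fold threshold. In CPM the fractions of hTDP-43WT did not overlap for Meg3 and Miat (5.87% of all genes). In Chat bacTRAP mice all 7 were lower (22.8% of all genes), with Miat at -2.74, Meg3 at -2.43, Malat1 at -2.13, Neat1 at -1.77, Snhg11 at -1.51, Mirg at -1.31 and Rian at -1.0. Meg3, Miat and Rian did not overlap there (6.68% of all genes). The Rian call was lost when any of 11 libraries was left out, at -1.0 to -0.92. Meg3 in MN-TRAP ranged over 1230 to 7632 normalised counts (median 3096) in hTDP-43WT and 666 to 13832 (median 4717) in Chat bacTRAP, so that the control libraries spread far more widely than those of hTDP-43A315T.

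Whether the depletion differed between genotypes was tested as a difference of differences. Meg3 was the one member called, with a depletion in hTDP-43A315T that was deeper than in Chat bacTRAP by 1.76 ± 0.45 on the log2 scale (-1.76, edgeR adjusted p = 0.0454, 0.419% of all genes called lower). Against hTDP-43WT its difference was -1.62 (adjusted p = 0.0689, 0.605% of all genes called lower), and the 2 tests share the hTDP-43A315T libraries. Neat1 had differences as large, -1.79 and -1.84, with adjusted p of 0.140 and 0.159. The Meg3 call was lost when any of 27 libraries was left out, with adjusted p of 0.0531 to 0.163. Without the 3 Lamr1-ps1 libraries Neat1 (-1.98, adjusted p = 0.0325) and Meg3 (-1.93, adjusted p = 0.0038) were called against Chat bacTRAP (3.25% of all genes, either direction), and Neat1 (-2.18), Meg3 (-1.90) and Miat (-1.52) against hTDP-43WT (8.38%). Without the 4 glia-rich libraries no member was called, Meg3 stood at -1.09 (adjusted p = 0.145) and Neat1 at -0.11 against Chat bacTRAP. None of the 7 differed between hTDP-43WT and Chat bacTRAP (0.403% of all genes called, either direction; lowest adjusted p = 0.857, 0 of 7 at an unadjusted p under 0.05, and 0 by DESeq2 or limma-voom).

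The genotypes were then compared within MN-TRAP. At 14 weeks Malat1, Neat1, Meg3 and Snhg11 were lower in hTDP-43A315T than in Chat bacTRAP, and at 9 weeks Neat1 was lower in hTDP-43A315T than in either control. These calls were made with all 12 groups in one fit, in which the fractions shared 1 estimate of the spread per gene. The median SD within groups, of log2 normalised counts plus 1, was larger in MN-TRAP than in spinal cord for every member. It was 1.31 against 0.533 for Neat1, 0.935 against 0.462 for Meg3 and 0.837 against 0.476 for Snhg11. The p-values of these calls thus rest in part on the smaller spread of spinal cord. An edgeR fit without the spinal cord libraries called none of the 6 (lowest adjusted p = 0.232, for Meg3), and neither did limma-voom. The fit without spinal cord called 0 of 16520 genes in each of the 4 comparisons of hTDP-43A315T with a control. All 6 changes had an unadjusted p under 0.05 in that fit. They were picked from the same MN-TRAP libraries, so this is no separate support. Chance alone gives that level in about 1 in 20 genes. Against Chat bacTRAP and hTDP-43WT, 639 and 884 genes reached it at 9 weeks and 2042 and 1723 at 14 weeks.

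At 14 weeks Meg3 had 2522, 805, 1645 and 989 normalised counts in the hTDP-43A315T MN-TRAP libraries, 13832, 8831, 6605 and 1420 in those of Chat bacTRAP and 3995, 7632, 2474, 3719 and 1558 in those of hTDP-43WT. In all, 3 of the Chat bacTRAP libraries lay above all of hTDP-43A315T and replicate 4, one of the shallow libraries (4.80 M counts), lay among them. Replicate 2, at 8831, was shallow too (2.41 M counts). The change against Chat bacTRAP was -2.25 ± 0.50, 4.77-fold (edgeR adjusted p = 0.00274, 5.17% of all genes called lower). Leaving out any 1 library kept this call, but limma-voom, with Meg3 at -1.19 (adjusted p = 0.615), did not make it. Of the 6 calls it was the one that remained, at -1.75 (adjusted p = 0.0035, 8.5% of all genes, either direction), when the 4 glia-rich libraries were left out. That fit still held the shallow replicates 2 and 4 of Chat bacTRAP, and no fit left out the glia-rich and the shallow libraries together.

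Neat1 had 866, 1188, 845 and 762 normalised counts in hTDP-43A315T, 14230, 2563, 2413 and 1240 in Chat bacTRAP and 2386, 7176, 1767, 2262 and 829 in hTDP-43WT. Malat1 had 410, 391, 367 and 345 in hTDP-43A315T, 6117, 1883, 383 and 495 in Chat bacTRAP and 1255, 5543, 522, 941 and 341 in hTDP-43WT. The hTDP-43A315T libraries were close to each other, whereas the control libraries ran from near that level up to many times it, and the highest of each control was its glia-rich library. Against Chat bacTRAP, Neat1 changed by -2.42 ± 0.69 (5.36-fold, edgeR adjusted p = 0.0164) and Malat1 by -2.49 ± 0.78 (5.61-fold, adjusted p = 0.027). Without Chat bacTRAP replicate 1 they were -1.04 and -1.04 and neither was called. The Malat1 call was also lost without any one of the 4 hTDP-43A315T libraries (adjusted p = 0.0529 to 0.0621), at about the same size of change.

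Snhg11 had 1707, 1981, 1764 and 1812 normalised counts in hTDP-43A315T and 9270, 4616, 1817 and 2049 in Chat bacTRAP, so that 2 of the 4 control libraries were near the hTDP-43A315T level. Its change was -1.20 ± 0.41 (2.30-fold, edgeR adjusted p = 0.0415), and -0.48 without Chat bacTRAP replicate 1. That call too was lost without replicate 2 of Chat bacTRAP (adjusted p = 0.0542) or any one of the 4 hTDP-43A315T libraries (0.0644 to 0.0811). Miat, Rian and Mirg were not called. Against hTDP-43WT at 14 weeks none of the 7 was called (4.67% of all genes were lower). The lowest adjusted p there was 0.0609 for Meg3, 5 of 7 had an unadjusted p under 0.05, and DESeq2 called 2 (Malat1 and Meg3) and limma-voom 1 (Meg3).

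At 9 weeks Neat1 had 373, 359, 555, 463 and 369 normalised counts in hTDP-43A315T, 531, 8962, 1710 and 319 in Chat bacTRAP and 774, 5622 and 865 in hTDP-43WT. One library of each control stood far above the rest, and one Chat bacTRAP library, that with Lamr1-ps1 reads, was the lowest of all. The change was -2.74 ± 0.65 against Chat bacTRAP (6.66-fold, edgeR adjusted p = 0.041, 0.536% of all genes called lower) and -2.57 ± 0.68 against hTDP-43WT (5.92-fold, adjusted p = 0.0307, 2.04% called lower). Neat1 was 1 of 30 genes (0.159%) lower than both controls at 9 weeks, in 2 comparisons that share the hTDP-43A315T libraries. Without Chat bacTRAP replicate 2 the first change was -0.76, and without hTDP-43WT replicate 2 the second was -0.90, and neither was then called. The calls were also lost without any one of the 5 hTDP-43A315T libraries against Chat bacTRAP (adjusted p = 0.0887 to 0.104), and without any of these but replicate 3 against hTDP-43WT (0.0663 to 0.0746). Meg3 had adjusted p of 0.0534 and 0.0614 in these comparisons. Between hTDP-43WT and Chat bacTRAP none of the 7 was called at either age (13.2% of all genes at 14 weeks and 0.223% at 9 weeks, either direction; lowest adjusted p = 0.143, 0 of 14 tests at an unadjusted p under 0.05, and 0 by DESeq2 or limma-voom).

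**Figure D3:**
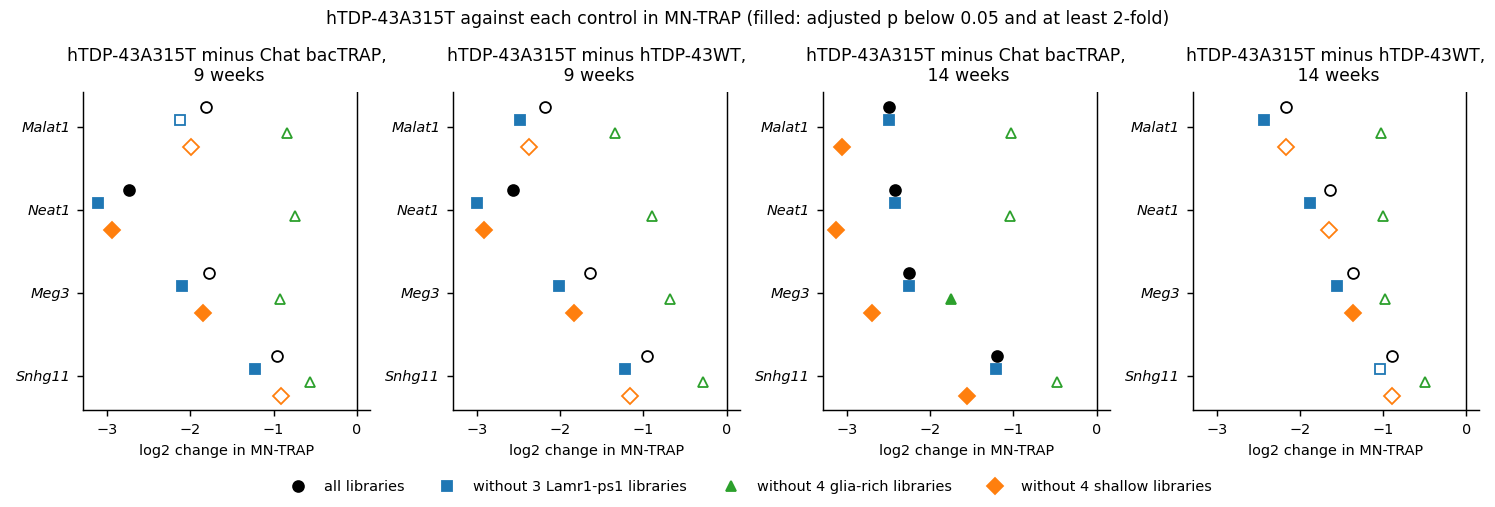
Log2 change of Malat1, Neat1, Meg3 and Snhg11 in MN-TRAP, hTDP-43A315T minus each control at each age, with all libraries, without the 3 Lamr1-ps1 libraries, without the 4 glia-rich libraries and without the 4 libraries under 5 M counts. Filled points were called, and without the glia-rich libraries Meg3 against Chat bacTRAP at 14 weeks was the one filled point of these genes.

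Leaving out the 3 Lamr1-ps1 libraries gave 16 calls in place of 6, of which 15 were of hTDP-43A315T against a control. The other was Mirg, at -3.62 in hTDP-43WT minus Chat bacTRAP at 9 weeks (adjusted p = 0.0269, 8.99% of all genes, either direction), where the hTDP-43WT libraries left held 0 and 5 counts of it. The 4 genes were then called against Chat bacTRAP at 14 weeks (12.1% of all genes, either direction), Neat1 (-3.11), Meg3 (-2.10) and Snhg11 (-1.22) at 9 weeks (3.96%). Against hTDP-43WT, Malat1 (-2.43), Neat1 (-1.88) and Meg3 (-1.56) were called at 14 weeks (10.3%), and Malat1 (-2.49), Neat1 (-3.0), Meg3 (-2.01), Miat (-1.56) and Snhg11 (-1.23) at 9 weeks (15.1%). In all 3 groups that held one, the Lamr1-ps1 library had the lowest Meg3 of its group. Without the library with Y-linked reads there were 10 calls, the same 6 and 4 more of Meg3. These were hTDP-43A315T minus hTDP-43WT at 14 weeks (-1.36, edgeR adjusted p = 0.0354, 5.64% of all genes) and 9 weeks (-1.64, adjusted p = 0.0308, 2.46%), hTDP-43A315T minus Chat bacTRAP at 9 weeks (-1.77, adjusted p = 0.0312, 0.648%) and hTDP-43WT minus Chat bacTRAP at 14 weeks (-1.24, adjusted p = 0.0284, 18.8%). In the difference of depletion it left Meg3 at -1.93 (adjusted p = 0.00339) and Neat1 at -1.95 (adjusted p = 0.0465) called against Chat bacTRAP and Meg3 at -1.62 (adjusted p = 0.0395) against hTDP-43WT. Without libraries under 5 M counts, Miat was called too against Chat bacTRAP at 14 weeks (-1.29, edgeR adjusted p = 0.0394, 20.2% of all genes, either direction). Malat1 and Neat1 were there at -3.05 and -3.13. Meg3 was then also lower in hTDP-43WT than in Chat bacTRAP at 14 weeks (-1.34, adjusted p = 0.0332, 4182 of 19427 genes, either direction).

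Some glial markers were lower in hTDP-43A315T too, mostly those of oligodendrocytes and astrocytes. In MN-TRAP of 14 weeks, 9 of 12 oligodendrocyte and 4 of 10 astrocyte markers were lower in hTDP-43A315T than in Chat bacTRAP. So were 2 of 8 microglial and 2 of 6 endothelial markers (5.17% of all genes were called lower). Against hTDP-43WT it was 11 of 12, 5 of 10, 1 of 8 and 0 of 6 (4.67%). At 9 weeks it was 1 of 12, 3 of 10, 0 of 8 and 0 of 6 against Chat bacTRAP (0.536%). Against hTDP-43WT it was then 3 of 12, 2 of 10, 1 of 8 and 1 of 6 (2.04%). The glial mean was 3.94 to 4.79 log2 CPM in the MN-TRAP libraries of hTDP-43A315T, 4.30 to 6.38 in hTDP-43WT and 3.98 to 6.69 in Chat bacTRAP, and mitochondrial genes took 0.0398% to 0.151%, 0.149% to 5.58% and 0.0637% to 5.81% of the counts. Their part in the genotype differences was not tested beyond the fits without those libraries.

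In spinal cord no member was called between genotypes at either age (0 of 42 tests, adjusted p of 0.9997 or above, 2 at an unadjusted p under 0.05, 0 by DESeq2 and 1, Malat1, by limma-voom), and 0% of all genes were called lower in any of the 6 comparisons. The values were still far apart in places. At 14 weeks Snhg11 had 7198, 4972, 6058 and 6654 normalised counts in hTDP-43A315T and 5723, 15911, 14004, 13075 and 18575 in Chat bacTRAP. Neat1 had 10049, 8647, 8074 and 6814 in hTDP-43A315T and 7302, 24321, 15935, 20367 and 21519 in Chat bacTRAP. In both genes 4 of 5 Chat bacTRAP libraries lay above all of hTDP-43A315T and the fifth, replicate 1 each time, lay among them. Mitochondrial genes took 8.53%, 6.42%, 5.52% and 7.65% of the counts in those 4 libraries and 1.14% in replicate 1. In the hTDP-43A315T libraries they took 1.08% to 1.72%. The part of mitochondrial RNA in these values was not tested. The 2 tests with an unadjusted p under 0.05 were of hTDP-43A315T minus Chat bacTRAP at 14 weeks, Snhg11 at -1.07 and Malat1 at -1.47. Between 14 and 9 weeks within a genotype and fraction no member was called either (0 of 42 tests, lowest adjusted p = 0.104, 2 at an unadjusted p under 0.05, 0 by DESeq2 or limma-voom), and that lowest value was for Meg3, at 1.24 in MN-TRAP of Chat bacTRAP (14 minus 9 weeks, log2). Of all genes 0.0106% were called between ages in MN-TRAP of hTDP-43A315T, 7.03% in hTDP-43WT and 5.15% in Chat bacTRAP, and 0% in each spinal cord comparison.

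Across the 25 MN-TRAP libraries most members rose and fell with glial and mitochondrial RNA. Levels were taken as the log2 CPM of edgeR, with a prior count of 2 added. Neat1 had a Pearson r of 0.94 and a Spearman rho of 0.90 with the glial and endothelial marker mean. Malat1 had 0.89 and 0.84, Meg3 0.82 and 0.77, Snhg11 0.81 and 0.66, Rian 0.69 and 0.55 and Miat 0.57 and 0.42. With the share of counts from mitochondrial genes r was 0.95 for Neat1, 0.93 for Malat1, 0.88 for Meg3, 0.82 for Snhg11, 0.66 for Rian and 0.55 for Miat. Mirg passed in neither (r = 0.22 and 0.22). Of 14 relations tested, 12 had a permutation p under 0.05 after Benjamini-Hochberg adjustment for both r and rho, and the p of Neat1 was 1e-05 before adjustment, the smallest the permutations can give.

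Without the 2 libraries farthest from the median marker mean, r was 0.90 for Neat1, 0.85 for Malat1, 0.75 for Meg3, 0.70 for Snhg11 and 0.57 for Rian. For Miat it was 0.39 (permutation p = 0.0675), so its relation rests on those 2 libraries. Within genotypes, r of Neat1 was 0.96 in Chat bacTRAP (n = 8), 0.90 in hTDP-43WT (n = 8) and 0.70 in hTDP-43A315T (n = 9). For Meg3 it was 0.80 and 0.90 in the controls and -0.09 in hTDP-43A315T, and for Miat 0.84, 0.45 and -0.17. The relation of Meg3 and Miat was therefore not seen within hTDP-43A315T, where the marker mean also covered a narrower range. These values were not tested within genotypes. The relations were not computed without the whole set of glia-rich libraries or without the Lamr1-ps1 libraries. The permutations took all MN-TRAP libraries as independent, the control libraries close in counts to hTDP-43A315T libraries included.

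**Figure D4:**
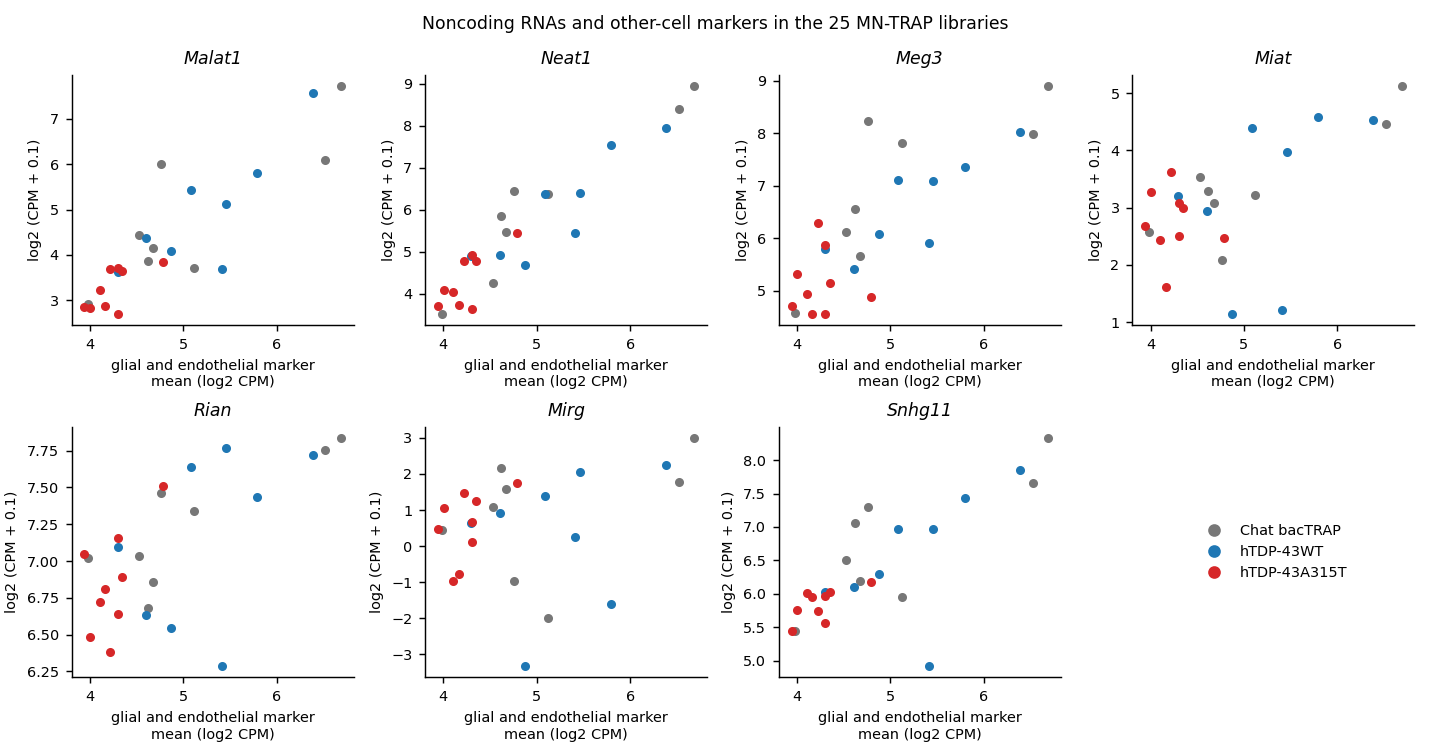
Level of each RNA, log2 of CPM plus 0.1, against the mean log2 CPM of the glial and endothelial markers in the 25 MN-TRAP libraries, by genotype. Neat1 rises with the marker mean over its whole range (r = 0.94), and Mirg shows little relation (r = 0.22). These r values were computed on log2 CPM with a prior count of 2, not on the plotted scale.

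The 4 glia-rich libraries had a median of 8069 normalised counts of Neat1 against 845 in the other 21 MN-TRAP libraries, and 3673 against 391 of Malat1. For Meg3 it was 7192 against 1558, for Snhg11 6036 against 1817, for Miat 697 against 219, for Mirg 112 against 44.2 and for Rian 5944 against 3298. The RNAs of the nuclear bodies thus differed most between these sets of libraries and Rian least.

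Over the 25 MN-TRAP libraries and 10879 genes of at least 5 CPM, the gene whose level was most correlated with that of Neat1 was mt-Cytb (r = 0.95), a mitochondrial gene. For Malat1 the closest were Gja1 (0.93), the gap junction protein of astrocytes, and mt-Rnr1 (0.93), a mitochondrial ribosomal RNA. For Meg3 the closest were Tac2 (0.92), a tachykinin precursor of neurons, and Mdm4 (0.91), a regulator of p53. Miat was closest to Tunar and Tmed2 (0.86 each), Rian to Xiap (0.93) and Rock1 (0.90), Mirg to Tmc7 (0.81), and Snhg11 to Malat1 itself (0.92) and Lpar1 (0.89). Among the members, Malat1 and Neat1 had an r of 0.91 in MN-TRAP and 0.32 in the 31 spinal cord libraries, and Meg3 and Miat 0.60 and 0.88. Libraries share depth and purity, so these are descriptions with no test.

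The members were set beside other lists over the same fraction comparison. Of the other long noncoding RNAs listed, 11 of 15 passed the filter, of which Ftx (-2.05) and Firre (-2.39) were lower, Pantr1 (1.05) was higher and 8 were not called, with a median of 0.09 against -0.17 for all genes. Ftx is a noncoding neighbour of the X-inactivation centre, and Firre is a nuclear RNA of the X chromosome. Of 19 host genes of small RNAs 12 passed, with Snhg6 (1.65) and Snhg3 (1.07) higher, Snhg17 (-1.16) lower and a median of 0.33. Gas5 was at 0.77 and Snhg5 at -0.80. Snhg11 at -1.61 was lower than every one of those 12. Of the protein-coding genes of the Dlk1-Dio3 domain, Dlk1 was at -0.54 and Rtl1 at -0.85, and neither was called. Of 15 proteins of paraspeckles and speckles, which are partners of Neat1 and Malat1, none was called (median 0.04), with Sfpq at 0.58, Hnrnpk at 0.51 and Srrm2 at -0.52.

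The sizes of depletion can be read against the cell markers. Oligodendrocyte markers were lower in 12 of 12 (median -2.36), among them Sox10 (-2.92), Mag (-2.88) and Cnp (-2.31). Astrocyte markers were lower in 9 of 10 (median -1.98; Gfap -2.34), microglial markers in 8 of 8 (median -1.95) and endothelial markers in 4 of 6 (median -1.16). The remaining astrocyte marker, S100b, went the other way at 0.996 (edgeR adjusted p = 1.82e-21), just short of 2-fold. Markers of other neurons were lower in 7 of 8 (median -1.53), with Pax2 at -2.54, Slc32a1 at -2.16 and Gad2 at -1.66, and motor neuron markers were higher in 8 of 8 (median 3.30), with Mnx1 at 3.74, Chodl at 3.40 and Ret at 2.32. The median of the 7 RNAs was -2.35, and Meg3 at -3.06 was lower than every oligodendrocyte, astrocyte, microglial or endothelial marker listed.

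**Figure D5:**
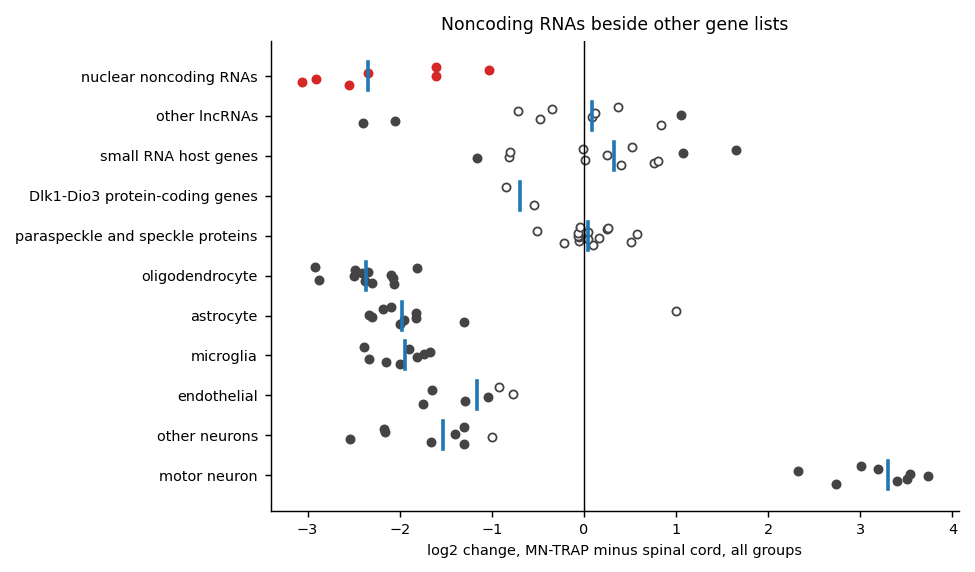
Log2 change from spinal cord to MN-TRAP over all groups for every gene of each list, with filled points for called genes and a blue bar at the list's median. The median of the 7 RNAs (-2.35) lies beside that of the oligodendrocyte markers (-2.36), with Meg3 below all of those markers and Snhg11, Mirg and Rian above them, and the other long noncoding RNAs (median 0.09) and paraspeckle and speckle proteins (median 0.04) lie near 0.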

How the data were processed

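The authors aligned reads to mm10 (GRCm38) with STAR, counted them per gene with featureCounts at standard parameters and normalised with DESeq2. The annotation release is not given in the sources used here and no strand setting is named, and 6 libraries the authors excluded are not analysed here. The deposited raw tables hold read counts per gene, and the deposited normalised tables hold each count divided by 1 size factor per library (a signal, called normalised count above). Of 43629 gene IDs 42462 matched a symbol, and 7 of 7 members matched.

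Raw counts were fitted in edgeR 4.0.16 (R 4.3.3) with a quasi-likelihood model of all 12 groups, after filterByExpr (18838 genes kept), with TMM scaling and robust dispersion, and p-values were adjusted over all genes by Benjamini-Hochberg. A gene was called at an adjusted p under 0.05 and at least 2-fold. The p-values measure the spread between libraries of both fractions, pooled per gene, and not that of the compared groups alone. The labels do not tie libraries to separate mice. The main fit took all libraries as independent, the 2 control libraries close in counts to hTDP-43A315T libraries included. The paper describes the spinal cord input as a part of the lysate of each sample, so the fractions can share mice. The main fit did not use that pairing. Samples were grouped by their labels. The steps were tested on simulated data with known fold changes. Genes and bases were placed with GENCODE M21. Alternatives (DESeq2 1.42.0, limma-voom of limma 3.58.1, another scaling, no filter, subsets of libraries, each library left out, a replicate block) were tried. The correlations used 100000 permutations in scipy 1.17.1, two-sided. PCR duplicates were not marked by molecular identifiers, so limits from counts cover counting error only. The median depth was 19.6 M counts in MN-TRAP and 40.4 M in spinal cord.

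The members, the lists and the sets of libraries left out were chosen with earlier results of these data known. The genes named as most like a member are the 2 with the highest Pearson r over the MN-TRAP libraries, and 2 of them are not reported here.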

Additional observations from a re-analysis of the deposited data

Results flagged for a closer look

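In 77 groups of 4 to 6 libraries, each of 1 gene, a value that stood apart from the others of its group by Dixon's test was found 7 times. Chance gives about 1 in 20 for independent groups of normally spread values. The values here were unlogged counts of 7 genes in the same libraries, so that rate need not hold. All 7 were the highest of their group. Neat1 had 14230 normalised counts in Chat bacTRAP MN-TRAP replicate 1 at 14 weeks (others 1240 to 2563), 8962 in Chat bacTRAP MN-TRAP replicate 2 at 9 weeks (others 319 to 1710) and 7176 in hTDP-43WT MN-TRAP replicate 2 at 14 weeks (others 829 to 2386). Malat1 had 5543 in that same hTDP-43WT library (others 341 to 1255), and Miat had 1005 in the same Chat bacTRAP library of 14 weeks (others 121 to 272). All 5 values came from the MN-TRAP libraries rich in glial RNA, and the part of that RNA in them was not tested.

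In spinal cord, Malat1 had 19763 normalised counts in hTDP-43WT replicate 4 at 9 weeks (others 2999 to 7040), and Snhg11 had 16229 in Chat bacTRAP replicate 6 at 9 weeks (others 7681 to 9114). Both libraries had the highest mitochondrial share of their group, at 10.1% and 5.41% of the counts, and its part was not tested. The depletion of Meg3 in MN-TRAP differed between genotypes by a test of the difference itself, hTDP-43A315T minus Chat bacTRAP, at -1.76 on the log2 scale (edgeR adjusted p = 0.0454), a call lost when any of 27 libraries was left out.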

How the results depend on the processing

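Over all settings no value changed sign after being called. The depletion in MN-TRAP was called for all 7 RNAs in every setting except without libraries under 5 M counts (6, without Rian), and within genotypes 20 of 21 calls became 19 to 21. The relations to other-cell RNA gave 12 of 14 with all libraries, on the log2 of normalised counts and without libraries under 5 M counts, and both of Miat missed 0.05 without the 2 farthest libraries (permutation p = 0.0675 and 0.0997).

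The differences of depletion between genotypes were 1 call, and 0 without the low-count filter, by limma-voom, without the mitochondria-rich or without the glia-rich libraries, 2 by DESeq2, 5 without the Lamr1-ps1 libraries, 4 without libraries under 5 M counts, 3 without 1 library with Y-linked reads, and 0 to 4 with each library left out. The genotype differences in MN-TRAP were 6 calls, and 0 in a fit of MN-TRAP alone, 1 by limma-voom (Meg3 against hTDP-43WT at 14 weeks, not among the 6), 10 by DESeq2, 16 without the Lamr1-ps1 libraries, 11 without libraries under 5 M counts, 1 without the glia-rich, 10 without the Y-linked, and 3 to 10 with each library left out. In spinal cord limma-voom gave 1 call in place of 0. Between ages there were 0, and 1 without the Lamr1-ps1 libraries, 1 without those under 5 M counts, 2 without the glia-rich, 1 without the Y-linked and 0 to 2 with each library left out. Except for what the left-out libraries themselves show, the cause was not tested.

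With a replicate block the genotype differences in MN-TRAP gave 3 calls and the differences of depletion 0. Correlation did not recover a pairing by replicate number, which cannot show that the numbers do not pair samples. Same-numbered MN-TRAP and spinal cord libraries had an r of -0.28 to 0.18 (median 0.028), 5 of 25 were over 0.1, and 6 of 25 matched their own number best.

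Counts over all genes moved too. hTDP-43A315T against Chat bacTRAP in MN-TRAP at 14 weeks gave 1960 genes, 0 in MN-TRAP alone and by limma-voom, 3932 without libraries under 5 M counts, 3282 without the Y-linked and 1191 without the mitochondria-rich. At 9 weeks it was 102 genes, 17 unfiltered, 0 in MN-TRAP alone, by limma-voom and without the glia-rich, 313 by DESeq2, 771 without the Lamr1-ps1 libraries, 289 without those under 5 M counts and 309 without the mitochondria-rich. Against hTDP-43WT it was 1009 at 14 weeks (0 in MN-TRAP alone, 162 by limma-voom, 2015 without Lamr1-ps1 libraries) and 403 at 9 weeks (0, 0 and 2938, 749 by DESeq2, 686 without those under 5 M counts, 641 without the mitochondria-rich, 10 without the glia-rich). The difference of depletion against Chat bacTRAP was 125 genes (3 by limma-voom, 411 by DESeq2, 633 without Lamr1-ps1 libraries, 1310 without those under 5 M counts, 79 without the mitochondria-rich, 81 without the glia-rich, 864 without the Y-linked) and against hTDP-43WT 118 (0, 416, 1633 and 337, and 20 without the glia-rich). The fraction called 6878 genes, and 14206 with no fold threshold. Median-ratio scaling moved log2 changes by at most -0.127 (hTDP-43A315T, MN-TRAP minus spinal cord) and turned no direction of the 7 RNAs that was called.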

Other observations

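Of 1936 other genes that the annotation gives as long noncoding RNAs and that passed the filter, 686 (35.4%) were lower in MN-TRAP, 283 (14.6%) were higher and 967 were not called, with a median log2 change of -0.35. Over all 18838 genes 26.1% were lower, 10.4% were higher and the median was -0.17. This set was chosen after the values were seen, and nothing was tested between the sets.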
